A study of Mus musculus with 23 samples.

Results

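Hpdl and 9 genes of coenzyme Q synthesis (Pdss1, Coq2, Coq3, Coq4, Coq5, Coq6, Coq7, Coq8a and Coq9) were followed in the hippocampus of mice on an ethanol diet with or without urolithin A (UA), a metabolite that gut bacteria make from plant ellagitannins. The 10 genes are 10 of the 19733 in the table, and all 10 passed the filter on low values. They were picked by name because Hpdl had been higher with UA, so the group differences of Hpdl are given as values without a test, and the other 9 genes were tested. Hippocampal RNA was sequenced from 23 male C57BL/6J wild-type mice that were 6 weeks old when acquired. The Ctrl group (9 mice) received the AIN93M control liquid diet and a daily gavage of the vehicle, 0.05% sodium carboxymethyl cellulose. The EtOH group (7 mice) received the ethanol liquid diet and the vehicle, and the EtOH-UA group (7 mice) received the ethanol liquid diet and UA at 200 mg/kg/day in the vehicle. Diets ran for 16 weeks, followed by 1 week of behavioral tests. All EtOH-UA mice were on ethanol, so no group shows UA on the control diet.

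Coenzyme Q, or ubiquinone, is the lipid that carries electrons in the inner mitochondrial membrane from complex I and other dehydrogenases to complex III, and its reduced form is an antioxidant. Its ring derives from tyrosine by way of 4-hydroxybenzoate, and its tail is built from isoprenoid units of the mevalonate pathway. Hpdl is a mitochondrial relative of the tyrosine-breakdown enzyme Hpd and acts on the route from tyrosine to the ring precursor. Pdss1 and its partner Pdss2 build the tail, Coq2 joins tail and ring, and Coq3 to Coq9 modify the ring as a complex on the inner membrane. Inherited loss of HPDL or of COQ8A causes neurological disease in people.

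Hpdl (gene ID 242642) is a gene of 1 exon on the minus strand at chr4:116819907-116821508 (GRCm38.p6, the assembly also called mm10), and no other annotated exon overlapped it. RefSeq placed its start at 116821508 and GENCODE placed it 199 bases further upstream, at 116821707, so the length by which its reads were scaled depends on the annotation used. Promoter windows from RefSeq (GRCm38.p6, 250 bases before the start to 50 after) matched 9 of the 10 genes, all but Coq5. The stretches below are shown because they hold the ETS, NRF1 and CCAAT matches found in Hpdl, in Pdss1 and in 3 of the genes whose levels varied together across mice. Capitals mark exact motif matches on either strand. The ETS-type motif CCGGAAG was found in Hpdl, Pdss1 and Coq6 and in 9.12% of 27025 promoter windows. The NRF1 motif GCGCATGC was found in Coq2 and in 2.8% of windows, and the CCAAT box in Coq6, Coq7 and Coq8a and in 37.9%. Matches of different motifs did not overlap in these genes.
Hpdl ETS (chr4:116821673-116821702, minus strand): acttcccgggccCCGGAAGgggtggctagt
Pdss1 ETS (chr2:22895542-22895571, plus strand): tcgcgCTTCCGGtgcccagCTTCCGGctcc
Coq6 ETS (chr12:84361975-84362004, plus strand): ttgacgactgccCCGGAAGcactttccagg
Coq2 NRF1 (chr5:100674287-100674316, minus strand): gcgccaccactGCGCATGCctgcccgcggc
Coq7 CCAAT (chr7:118533357-118533606, minus strand): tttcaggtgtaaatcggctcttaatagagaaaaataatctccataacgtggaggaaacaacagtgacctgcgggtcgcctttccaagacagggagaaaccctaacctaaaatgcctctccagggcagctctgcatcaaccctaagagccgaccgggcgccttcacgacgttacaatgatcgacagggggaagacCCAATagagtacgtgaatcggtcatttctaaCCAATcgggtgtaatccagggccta
The ETS match of Hpdl began 182 bases before the RefSeq start but 17 bases after the GENCODE start. In Pdss1 the matches began 25 and 39 bases after the start used for its window, and in Coq6 the match began 19 bases after its own. The NRF1 match of Coq2 began 49 bases before the start used for its window, and those of the CCAAT box in Coq7 56 and 25 bases before its own. For Pdss1, Coq6 and Coq2 the start used lies downstream of the outermost RefSeq position of the gene (22894382, 84361756 and 100674288). The YY1 motif AAGATGGC was found in Coq9 and in 2.88% of windows, the E-box CACGTG in Coq4 and in 7.24%, and the ERR motif AAGGTCA in Pdss1 and in 4.66%. A match is a string of letters and does not show that a factor binds there.

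The level of each gene is given in FPKM, a fragment count divided by transcript length and library size, so levels can be set side by side between genes. The values of a mouse summed to 330456 to 361354 FPKM in the Ctrl group, 327896 to 366930 in the EtOH group and 333801 to 404609 in the EtOH-UA group. Even steps among the low values of 127 genes with 1 transcript put the depth at a median of 16.7 fragments per kilobase at 1 FPKM (quartiles 15.4 and 17.9). Markers of hippocampal neurons were above 0 in every mouse (summed over 7 genes, 186 to 267 FPKM). Markers of the choroid plexus, a tissue of the ventricles, varied widely between mice. These 8 genes, among them Ttr, summed to between 8.38 and 2981 FPKM in Ctrl mice, 71.5 and 5772 in EtOH mice and 16.8 and 7838 in EtOH-UA mice. The labels name separate mice and no batch.

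Hpdl was lowest in the EtOH mice and highest in the EtOH-UA mice. Its level in the 7 EtOH mice was 0.97, 0.99, 1.10, 1.16, 1.19, 1.45 and 1.55 FPKM in ascending order, 1.201 ± 0.221 FPKM (SD, n = 7). In the 7 EtOH-UA mice it was 1.34, 1.65, 1.73, 2.02, 2.34, 2.42 and 3.15 FPKM, 2.09 ± 0.604 FPKM (SD, n = 7). The groups overlapped through 1 EtOH-UA mouse, and the other 6 of 7 lay above the highest EtOH mouse. The 9 Ctrl mice had a median of 1.45 and a mean of 1.52 ± 0.252 FPKM (SD, n = 9), between those of the other groups. The Ctrl mice ranged from 1.21 to 1.92 FPKM and overlapped both other groups. Because tissue RNA was sequenced, fewer cells that express a gene and less of its RNA per cell cannot be told apart.

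**Figure D1:**
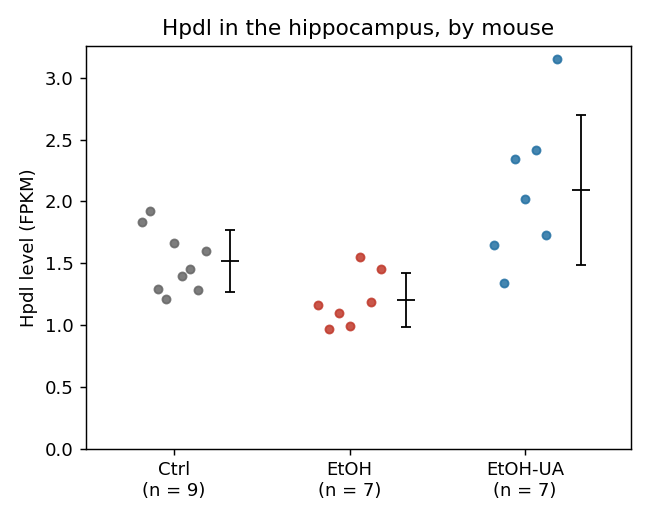
Hpdl level in FPKM (vertical axis, from 0) for each mouse of the Ctrl, EtOH and EtOH-UA groups (points), with the mean and SD of each group as a bar. The EtOH mice sit between 0.97 and 1.55 FPKM and 6 of the 7 EtOH-UA mice sit above all of them.

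The mean level of Hpdl in EtOH-UA mice was 1.74 times that in EtOH mice, a log2 difference of 0.72 ± 0.15 (SE) on log2(FPKM + 0.1). Against Ctrl mice the mean was 1.38 times as high in EtOH-UA mice (log2 difference 0.41 ± 0.14, SE), and 4 of 7 EtOH-UA mice exceeded the highest Ctrl mouse. The mean in EtOH mice was 0.793 times that in Ctrl mice (log2 difference -0.31 ± 0.14, SE), and 5 of 7 EtOH mice fell below the lowest Ctrl mouse. These differences are those by which Hpdl was chosen, and the comparisons share mice. The EtOH-UA mice also spread more widely than the others. At the estimated depth a mouse had about 45.6 Hpdl fragments if in the Ctrl group, against 36.1 for EtOH and 63.0 for EtOH-UA, and counting alone would give an SD of 0.224, 0.200 and 0.264 FPKM. The SDs of the Ctrl and EtOH mice were close to these values, and that of the EtOH-UA mice was larger.

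The EtOH-UA mouse with the most Hpdl (3.15 FPKM) also had the highest summed FPKM of all mice, 404609. The mean log2 deviation of its neuron markers, -0.20, was the lowest of all mice. That of its red blood cell markers, 1.17, was the highest, and that of its choroid plexus markers was 2.96. For astrocyte markers it was -0.02, inside the range of the others. The part of tissue make-up in its Hpdl level was not tested. Without this mouse the log2 difference of Hpdl from EtOH mice was 0.62, and over all 23 single mice left out it ranged from 0.62 to 0.82. Hpdl did not follow the choroid plexus score, the mean log2 deviation of its markers, across the 23 mice after removal of group means (Pearson's r = 0.08, permutation p = 0.717; Spearman's rho = 0.03, p = 0.901; adjusted p = 0.717 and 0.901 over 3 relations). The ependymal score gave r = 0.17 (p = 0.439) and rho = 0.13 (p = 0.547), with adjusted p = 0.659 and 0.820, and 6 of 6 ependymal markers had a higher mean in EtOH than in Ctrl mice (median log2 difference 1.10), all 6 with an unadjusted p under 0.05 (1.95% of all genes were higher at that p) and none called. The log2 summed FPKM gave r = 0.36 (p = 0.0952, adjusted p = 0.286) and rho = 0.20 (p = 0.352, adjusted p = 0.820), and r was -0.03 without the 2 mice farthest from the median of Hpdl. Columns of the table carry mouse numbers whose meaning is not stated. All 7 EtOH-UA mice had numbers below 180 and 6 of 7 EtOH mice had numbers at or above 180, a boundary set after the numbers were seen. In the Ctrl group Hpdl averaged 1.64 FPKM in 3 mice below it (1.40 to 1.92) and 1.45 in 6 mice at or above it (1.21 to 1.83). The 1 EtOH mouse below it had 1.10 FPKM, less than all 7 EtOH-UA mice, and the 6 EtOH mice at or above it averaged 1.22 FPKM (0.97 to 1.55). With 1 such mouse the numbers and the UA treatment largely coincided in the ethanol groups, and the part of the numbers was not tested.

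Hpd, the liver enzyme of tyrosine breakdown whose relative Hpdl is, was listed at 0 in 17 of 23 mice and reached at most 0.45 FPKM, and Hpdl was above it in 23 of 23 mice. Of the 10 genes Hpdl had the lowest level, 1.60 ± 0.516 FPKM over all mice (SD, n = 23). Coq2 was the highest at 33.1 ± 3.95 FPKM, followed by Coq9 (22.8), Coq7 (21.1), Coq8a (17.8), Coq5 (15.4), Coq6 (8.10), Coq3 (7.33), Coq4 (6.96) and Pdss1 (5.16). The order was firm at both ends, since Coq2 exceeded Coq9 and Pdss1 exceeded Hpdl in 23 of 23 mice. Coq5 also exceeded Coq6 in 23 of 23 mice, Coq7 exceeded Coq8a in 22, and Coq8a exceeded Coq5 and Coq4 exceeded Pdss1 in 21. Neighbours in the middle were less separate, with Coq9 above Coq7 in 17 of 23 mice, Coq6 above Coq3 in 18 and Coq3 above Coq4 in 16. Among partner and sister genes, Pdss1 lay below Pdss2 (6.63 FPKM) in 23 of 23 mice, and Coq8a lay above Coq8b (10.4 FPKM), its close relative, in 23 of 23.

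None of the 9 other genes of the synthesis route passed the test between EtOH-UA and EtOH mice, and neither did any gene of the whole set tested. With limma's adjusted p under 0.05 as the threshold, 0 of the 9 genes and 0 of 15986 genes tested were called (0%), Hpdl among them, and 523 genes had an unadjusted p under 0.05 (1.83% of genes higher and 1.45% lower). Counts of genes with a higher or lower mean refer throughout to the mean of log2(FPKM + 0.1). Of the 9 genes 7 had a higher mean in EtOH-UA mice and 0 had an unadjusted p under 0.05, with a median log2 difference of 0.06, beside 51.2% of all genes higher and a median of 0.0033. By mean FPKM 8 of 9 were higher, as Coq8a stood at 17.8 FPKM in EtOH-UA and 17.7 in EtOH mice. The 9 log2 differences ran from -0.11 to 0.16, and their 95% intervals together spanned -0.32 to 0.38. Changes beyond that span lay outside the interval of each of the 9 genes.

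For the tail, Pdss1 had a median of 5.19 FPKM in EtOH mice (4.69 to 5.95) and of 5.02 FPKM in EtOH-UA mice (3.25 to 5.71). The groups overlapped apart from 1 EtOH-UA mouse at 3.25 FPKM, and the log2 difference was -0.11 (95% interval -0.32 to 0.11, two-sided exact permutation p = 0.436, limma adjusted p = 0.900). Coq2, which attaches the tail, was 31.7 ± 3.57 FPKM in EtOH mice and 34.5 ± 5.22 in EtOH-UA mice (SD, n = 7 each). Its log2 difference was 0.12 (-0.06 to 0.30, exact permutation p = 0.262), and the 2 EtOH-UA mice above every EtOH mouse stood at 38.67 and 44.41 FPKM. The other 5 EtOH-UA mice lay inside the range of the EtOH mice.

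Coq6, a ring hydroxylase, had the largest difference of the 9 genes. The EtOH mice stood at 6.42, 7.27, 7.32, 7.34, 7.34, 7.51 and 9.56 FPKM and the EtOH-UA mice at 7.40, 7.57, 7.60, 8.20, 8.32, 9.62 and 10.40 FPKM. All 7 EtOH-UA mice were above the EtOH median and 2 were above the highest EtOH mouse, and the log2 difference of 0.16 (-0.04 to 0.36) did not pass (exact permutation p = 0.107, limma adjusted p = 0.900). Coq9, a lipid-binding partner of Coq7, was 21.5 ± 1.79 FPKM in EtOH mice and 23.7 ± 2.85 in EtOH-UA mice (SD, n = 7 each), a log2 difference of 0.14 (-0.02 to 0.29, exact permutation p = 0.111). Both genes thus differed by less than the spread between mice allows to be called.

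Coq7, the hydroxylase of a late step, showed how single mice shaped these means. Its EtOH-UA values were 17.90, 17.96, 18.39, 18.57, 19.43, 27.90 and 35.19 FPKM, against 17.26 to 25.78 FPKM in EtOH mice (median 18.91). Of the EtOH-UA mice 5 lay together at the low end and 2 lay above every other mouse of the study. The log2 difference was 0.11 (-0.16 to 0.38, exact permutation p = 0.531). The methyltransferases Coq3 (log2 difference 0.02, interval -0.11 to 0.16, exact permutation p = 0.734) and Coq5 (0.06, -0.12 to 0.24, p = 0.474 by the same exact test) and the complex member Coq4 (0.06, -0.16 to 0.28, exact permutation p = 0.572) differed little. Coq8a, a kinase-like ATPase of the complex, had the smallest difference, -0.00011 (-0.17 to 0.17, exact permutation p = 0.999).

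**Figure D2:**
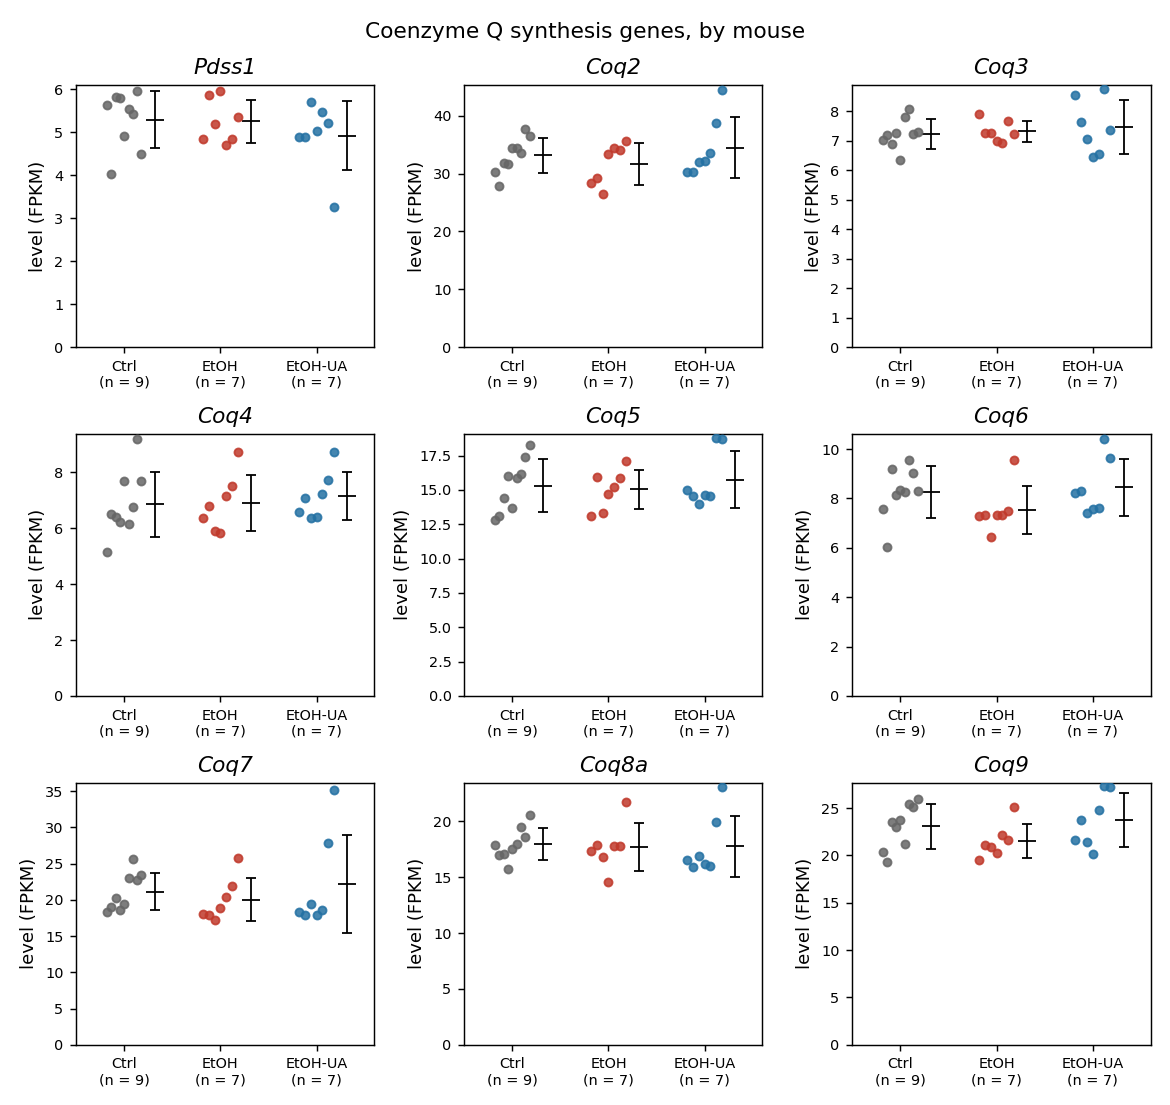
Level in FPKM (vertical axes, from 0) of the other 9 genes in each mouse, with the mean and SD of each group as a bar. The groups overlap in every panel, and in Coq7 the 2 EtOH-UA mice at 27.90 and 35.19 FPKM stand above the rest.

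Between EtOH and Ctrl mice the levels of the 9 genes lay close together. Of 15986 genes 0 (0%) were called by limma and 487 had an unadjusted p under 0.05 (1.95% of genes higher and 1.1% lower), and of the 9 genes 0 were called and 0 had an unadjusted p under 0.05. Their means were lower in EtOH mice for 7 of 9 genes, with a median log2 difference of -0.03, while 48.6% of all genes were higher and the median was -0.0030. The difference farthest from 0 was that of Coq6, with 8.27 ± 1.04 FPKM in Ctrl mice and 7.54 ± 0.961 in EtOH mice (SD, n = 9 and 7; log2 difference -0.13, 95% interval -0.32 to 0.06, exact permutation p = 0.181). For Coq9 it was -0.10 (-0.24 to 0.05, exact permutation p = 0.181), for Coq7 -0.08 (-0.34 to 0.17, exact p = 0.392) and for Coq2 -0.07 (-0.23 to 0.10, exact p = 0.381). These were the largest of the group. Coq8a (-0.03, exact p = 0.730), Coq5 (-0.02, exact p = 0.797), Coq3 (0.02, exact p = 0.702), Coq4 (0.01, exact p = 0.903) and Pdss1 (-0.0060, exact p = 0.946) lay within 0.03 of 0.

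Between EtOH-UA and Ctrl mice 0 of 15986 genes (0%) and 0 of the 9 genes were called, and 492 genes had an unadjusted p under 0.05 (1.56% higher and 1.52% lower), with 0 of the 9 among them. Means were higher in EtOH-UA mice for 7 of 9 genes (median log2 difference 0.04; 51.2% of all genes, median 0.0024). Pdss1 differed by -0.11 (95% interval -0.31 to 0.09, exact permutation p = 0.367) and Coq8a by -0.03 (exact p = 0.760). The 7 with higher means were Coq4 (0.07, exact p = 0.520), Coq2 (0.05, exact p = 0.569), Coq5 (0.04, exact p = 0.645), Coq3 (0.04, exact p = 0.553), Coq9 (0.04, exact p = 0.622), Coq6 (0.03, exact p = 0.753) and Coq7 (0.03, exact p = 0.835). This count depended on 2 mice, picked once the values were known. It was 3 of 9 without the EtOH-UA mouse of highest summed FPKM, 4 of 9 without the next and 0 of 9 without both. Mice were left out of the EtOH-UA group alone, a choice that favors a lower count. The smallest p that these exact tests could give was 0.00017 against Ctrl mice and 0.00058 between EtOH-UA and EtOH mice, and limma's adjusted p for the 9 genes was 0.900 or higher in each comparison.

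**Figure D3:**
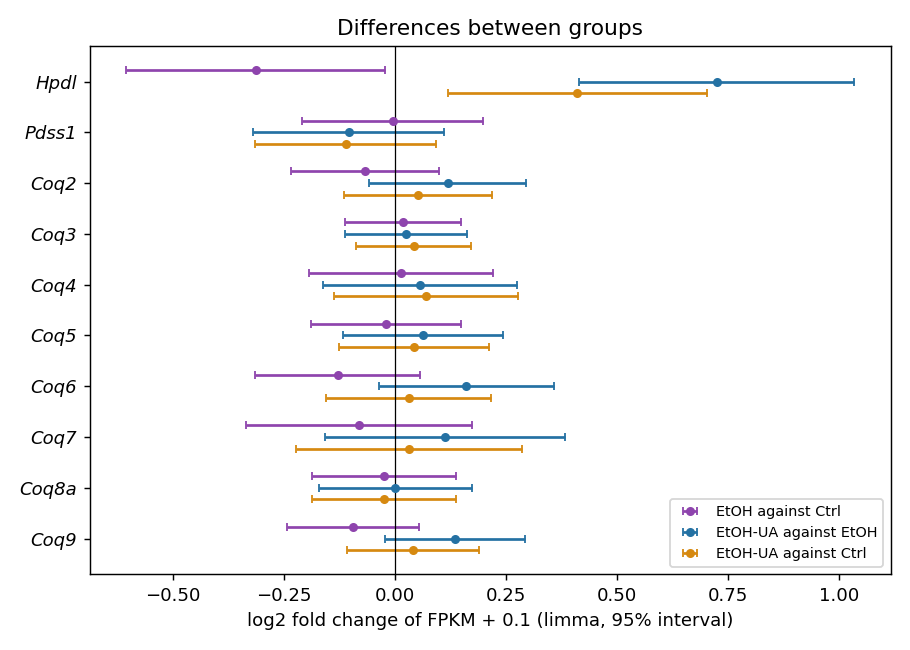
Log2 fold change of FPKM + 0.1 (horizontal axis) for the 10 genes in the comparisons of EtOH with Ctrl, EtOH-UA with EtOH and EtOH-UA with Ctrl, with limma's 95% interval as bars. Hpdl, chosen for this difference, lies at -0.31, 0.72 and 0.41, and its bars are a description and no test. The other 9 genes lie between -0.13 and 0.16 with intervals that cross 0.

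Genes around the synthesis route behaved alike in size. Of 12 other genes that make, handle or regulate coenzyme Q, 11 had a higher mean in EtOH-UA than in EtOH mice (median log2 difference 0.08). Over all genes 51.2% did, and 1.83% were higher with an unadjusted p under 0.05. Of the 12 genes 1 reached that p. That gene was Fdxr (0.19 ± 0.09, SE), the reductase that with a ferredoxin feeds electrons to Coq6, followed by the kinase-like Adck5 (0.16 ± 0.09). Pdss2 was 6.42 ± 0.341 FPKM in EtOH mice and 6.96 ± 0.848 in EtOH-UA mice (SD, n = 7 each). Between EtOH and Ctrl mice 2 of the 12 were higher (median -0.02), with the smallest p for Coq10a (-0.13 ± 0.06), a coenzyme Q chaperone, and Fdxr (-0.13 ± 0.08). Between EtOH-UA and Ctrl mice 10 of 12 were higher (median 0.06), led by Pdss2 (0.08 ± 0.06) and Adck5 (0.09 ± 0.09). Without the 2 EtOH-UA mice of highest summed FPKM, 8 of 12 were higher than in EtOH mice (median 0.04) and 7 of 12 higher than in Ctrl mice (median 0.02).

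The precursor routes did not lean higher with UA, and most mevalonate genes had a lower mean. Of 5 genes of tyrosine breakdown that passed the filter on low values, 2 had a higher mean with UA than in EtOH mice (median -0.01), and Tat, the tyrosine aminotransferase, differed by -0.27 ± 0.15 and Got1 by 0.07 ± 0.06 (SE). Against Ctrl mice 2 of 5 were higher in EtOH mice (median -0.03; Got1 -0.08 ± 0.06 and Fah 0.07 ± 0.06) and 1 of 5 in EtOH-UA mice (median -0.03; Tat -0.12 ± 0.15 and Gstz1 -0.04 ± 0.05). Of 12 mevalonate and isoprenoid genes 4 had a higher mean with UA than in EtOH mice (median -0.05), and Mvd, which makes the isoprenoid unit, differed by -0.14 ± 0.11. In EtOH mice 4 of 12 were above Ctrl (median -0.01; Ggps1 -0.05 ± 0.04 and Dhdds -0.05 ± 0.04), and in EtOH-UA mice 3 of 12 (median -0.06; Dhdds -0.07 ± 0.04 and Mvd -0.16 ± 0.10). Without the 2 EtOH-UA mice of highest summed FPKM, 0 of the 5 tyrosine genes were higher than in EtOH mice (median -0.04). Of the 12 mevalonate genes 1 was (median -0.11). Against Ctrl mice these were 1 of 5 (median -0.05) and 1 of 12 (median -0.13). None of these genes was called.

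Genes of the complexes that use coenzyme Q leaned one way over all mice, and none passed the test. With UA the lean depended on 2 mice. With UA, 36 of 36 complex I genes had a higher mean than in EtOH mice (median log2 difference 0.18), with Ndufa1 at 0.32 ± 0.15 and Ndufv2 at 0.17 ± 0.10 (SE). Over all genes 51.2% were higher, and 1.83% were higher with an unadjusted p under 0.05, as was 1 of the 36. Between EtOH and Ctrl mice 0 of 36 were higher (median -0.12; Ndufa1 -0.23 ± 0.14 and Ndufa11 -0.19 ± 0.12), and 33 of 36 had a higher mean with UA than in Ctrl mice (median 0.04; Ndufab1 0.12 ± 0.09 and Ndufa9 0.10 ± 0.11). Complex III, which takes electrons from coenzyme Q, had 9 of 9 genes higher with UA than in EtOH mice (median 0.10; Uqcrb 0.21 ± 0.12 and Uqcrh 0.20 ± 0.12), 0 of 9 in EtOH against Ctrl mice (median -0.11; Uqcrh -0.19 ± 0.11 and Uqcr11 -0.17 ± 0.14) and 7 of 9 in EtOH-UA against Ctrl mice (median 0.03; Uqcrb 0.09 ± 0.11 and Uqcrfs1 0.05 ± 0.08). Without the EtOH-UA mouse of highest summed FPKM the median against EtOH mice was 0.08 for complex I (33 of 36 higher) and 0.02 for complex III (7 of 9), and without the next mouse it was 0.10 and 0.04. Without both it was -0.04 for complex I (6 of 36 higher) and -0.05 for complex III (2 of 9). Both were picked once the values were known, as the EtOH-UA mice of highest complex I score, and no mouse of another group was left out with them. A lower complex I median therefore followed from that choice. Against Ctrl mice the median turned with the first of these mice left out, to -0.05 for complex I (4 of 36 higher) and -0.04 for complex III (0 of 9), and with the second to -0.03 and -0.05. The lower medians in EtOH than in Ctrl mice ranged with single mice left out from -0.17 to -0.08 for complex I and from -0.16 to -0.07 for complex III. The genes of a list were measured in the same libraries, so these counts are not independent.

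Other enzymes that reduce coenzyme Q were mixed. Of 12 such dehydrogenase genes 8 had a higher mean with UA than in EtOH mice (median 0.10), among them Sdhd of complex II (0.13 ± 0.08) and Prodh (0.15 ± 0.10), 5 were higher in EtOH than in Ctrl mice (median -0.05; Chdh 0.22 ± 0.18 and Sqor 0.15 ± 0.13) and 10 in EtOH-UA than in Ctrl mice (median 0.05; Nqo1 0.23 ± 0.20 and Sqor 0.14 ± 0.13). Of 8 genes used as a measure of mitochondrial content, 6 had a higher mean with UA than in EtOH mice (median 0.03), while Ppargc1a, a regulator of mitochondrial biogenesis, differed by -0.22 ± 0.12 and Vdac2 by 0.12 ± 0.08. In EtOH against Ctrl mice 1 of 8 was higher (median -0.03; Vdac2 -0.08 ± 0.08 and Tfam -0.06 ± 0.06), and in EtOH-UA against Ctrl mice 3 of 8 (median -0.0069; Ppargc1a -0.18 ± 0.11 and Cs -0.04 ± 0.04). Without the 2 EtOH-UA mice of highest summed FPKM, 4 of the 12 dehydrogenase genes (median -0.0063) and 2 of the 8 content genes (median -0.05) were higher than in EtOH mice. Limma's adjusted p for the genes named from these lists was 0.900 or higher.

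Across the 23 mice, after group means were removed, 7 of the synthesis genes varied together. Coq2, Coq4, Coq5, Coq6, Coq7, Coq8a and Coq9, grouped after their values were seen, had Pearson's r between 0.58 and 0.87 in their 21 pairs (median 0.72), the strongest between Coq7 and Coq8a. Hpdl, Pdss1 and Coq3 stood outside this group. The r of Hpdl with the 7 genes ran from -0.12 to 0.49 (median 0.21), that of Pdss1 from -0.48 to 0.09 (median -0.26) and that of Coq3 from 0.03 to 0.35 (median 0.28). The points share libraries and their scaling, and the grouping carries no test.

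Of the 9 relations of Hpdl with another gene of the route, 1 passed, that with Pdss1, at r = -0.58 (permutation p = 0.00378, adjusted p = 0.0340). By rank it did not pass (Spearman's rho = -0.42, p = 0.0456, adjusted p = 0.205). Without the 2 mice farthest from the median of Hpdl r was -0.46, and without the single EtOH-UA mouse that had both the most Hpdl (3.15 FPKM) and the least Pdss1 (3.25 FPKM) it was -0.36 (permutation p = 0.101, adjusted p = 0.455), so the call rested on that mouse. Coq8a had r = 0.49 (p = 0.0183, adjusted p = 0.0823; rho = 0.38, p = 0.0746, adjusted p = 0.224; r = 0.23 without the 2 farthest mice). Coq3 had r = -0.37 (p = 0.0793, adjusted p = 0.178; rho = -0.46, p = 0.0276, adjusted p = 0.205; r = -0.44 without the 2). For Coq2, Coq4, Coq5, Coq6, Coq7 and Coq9 the adjusted p of r was between 0.178 and 0.959.

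**Figure D4:**
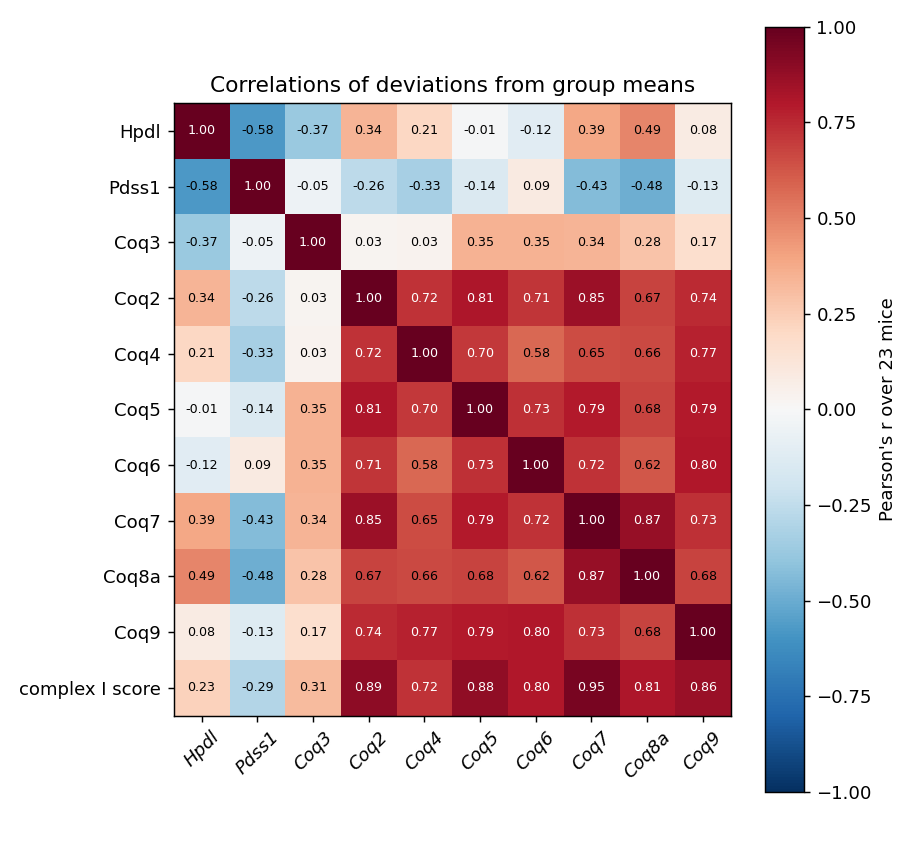
Pearson's r over 23 mice between deviations from the group means of log2(FPKM + 0.1), for each pair of the 10 genes and, in the last row, for the complex I score (mean deviation of 36 genes); color runs from -1 (blue) to 1 (red). Coq2, Coq4, Coq5, Coq6, Coq7, Coq8a and Coq9 form a block at 0.58 to 0.87, and Hpdl, Pdss1 and Coq3 lie outside it.

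The 7 genes also followed complex I. Relations of the complex I score with the 10 genes were computed after the data had been seen. The score had r = 0.95 with Coq7, 0.89 with Coq2, 0.88 with Coq5, 0.86 with Coq9, 0.81 with Coq8a, 0.80 with Coq6 and 0.72 with Coq4 (adjusted permutation p of 0.000143 or less over 10 relations). Spearman's rho for these 7 was between 0.68 and 0.89 (adjusted p of 0.000629 or less), and r was between 0.71 and 0.92 without the 2 mice farthest from the median of the score. Hpdl (r = 0.23, adjusted p = 0.289; rho = 0.10, adjusted p = 0.669), Pdss1 (r = -0.29, adjusted p = 0.196; rho = -0.09, adjusted p = 0.669) and Coq3 (r = 0.31, adjusted p = 0.182; rho = 0.25, adjusted p = 0.306) did not pass. After the part that followed the complex I score was removed, the median r among the 21 pairs was 0.00066 and r ran from -0.50 to 0.55. The complex I score in turn followed the log2 summed FPKM of the library (r = 0.97 and rho = 0.92, permutation p = 1e-05 for both, the smallest the permutations could give; r = 0.97 without the 2 farthest mice), and the part of the library total in these values was not tested.

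The complex I score was highest in 2 EtOH-UA mice, at 0.65 and 0.54, whose summed FPKM were 404609.2 and 379517.8. Each of the 7 genes had its 2 highest EtOH-UA values in these mice. Without them, a choice made once the values were known, the log2 difference of EtOH-UA from EtOH mice was -0.11 for Coq7, 0.0071 for Coq2, -0.04 for Coq5, -0.03 for Coq4, -0.02 for Coq3, -0.11 for Coq8a, 0.06 for Coq6 and 0.05 for Coq9, so that 4 genes with a higher mean had a lower one. No mouse of another group was left out with them, so a lower EtOH-UA mean of the 7 genes followed from that choice. The difference of Hpdl, for which it was chosen, was 0.64 ± 0.15 (SE) without the 2 mice and 0.68 ± 0.15 with the complex I score as a covariate.

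**Figure D5:**
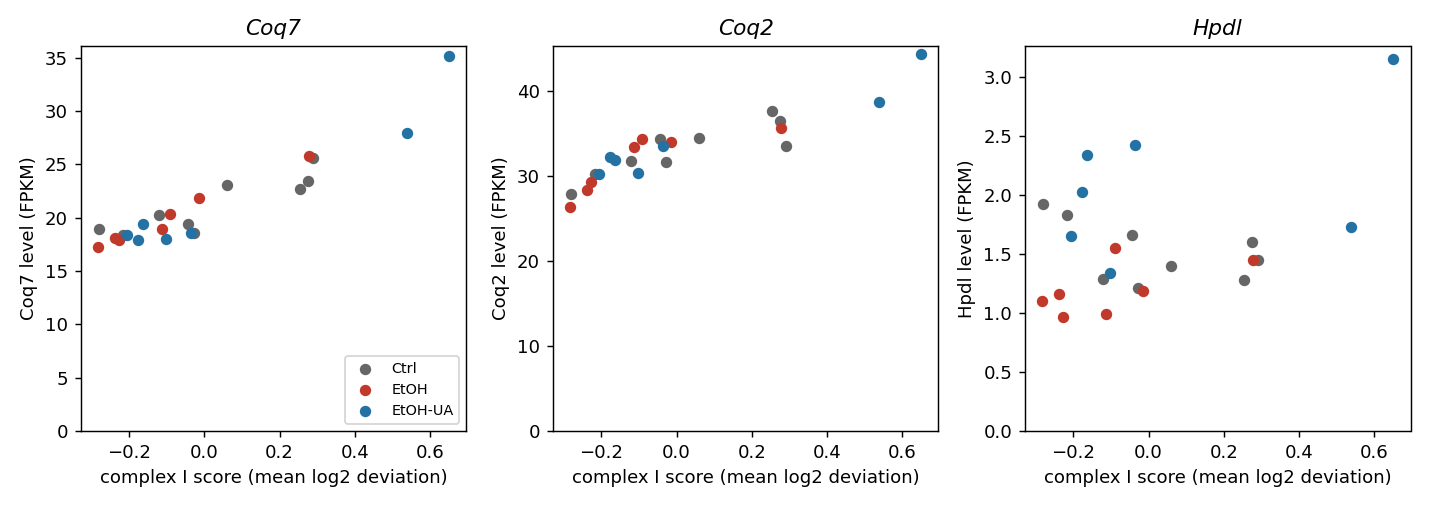
Level in FPKM (vertical axes, from 0) of Coq7, Coq2 and Hpdl against the complex I score of the same mouse (horizontal axes, mean log2 deviation of 36 genes from the mean over all mice), colored by group. Coq7 and Coq2 climb with the score to the 2 EtOH-UA mice at 0.54 and 0.65, while Hpdl of the EtOH-UA mice is spread from 1.34 to 3.15 FPKM without that order.

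Over 12903 genes that averaged 1 FPKM or more, those whose deviations across the 23 mice were most like those of Hpdl were Nek6 (r = 0.85), Cnot2 (0.81), Brinp1 (0.80), Chn1 (0.79) and Sec14l2 (0.79). The kinase gene Nek6 was 14.05 ± 1.09 FPKM in EtOH mice and 14.9 ± 2.398 in EtOH-UA mice (SD, n = 7 each), and Chn1, a neuronal regulator of Rac, was 305 ± 26.7 and 325 ± 28.5 FPKM. The most opposite were Gramd2 (-0.84), Efna5 (-0.80), an axon guidance ligand, and Tenm4 (-0.80), a transmembrane protein of neurons. Without the 2 mice farthest from the median of Hpdl the first 5 had r between 0.67 and 0.76 and the last 3 between -0.75 and -0.64. They are the extremes of many genes and carry no test. In the same ranking from the highest r, Coq8a stood at place 567, Coq7 at 1256, Coq2 at 1764 and Pdss1 at 12481.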

How the data were processed

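Per the labels and the methods, hippocampal RNA of 23 mice was sequenced. Reads were mapped by the authors to mm10 (Bowtie2) and quantified by RSEM, and the submitters' notes name Bowtie2 2.2.5, RSEM 1.2.8 and HISAT2 2.1.0. RNA was poly(A)+ in the methods but total RNA in the labels. The authors deposited FPKM with 2 decimals, already corrected for gene length and sequencing yield, so a test for counts could not be used. Whether strand was used in counting is not given in the sources used here, and exons of Pdss1, Coq4, Coq6, Coq8a and Coq9 overlap genes of the opposite strand. Read totals were not used, and depth was estimated from the steps between low values; intervals cover the spread between mice.

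Columns were assigned to groups by name, and 0 columns were identical. The 15986 genes averaging 0.1 FPKM or more were fitted as log2(FPKM + 0.1) with limma 3.58.1 in R 4.3.3 (3 groups in 1 model, eBayes with trend, Benjamini-Hochberg adjustment over all genes tested, threshold 0.05). Fold changes are on that scale, which understates the change of low genes. For the 9 genes other than Hpdl the mean log2 values were also set against all splits of the mice (two-sided exact permutation test), and correlations used 100000 permutations with Python 3.11.15. In simulated data for EtOH-UA against EtOH (200 genes changed), 64.5% of log2 changes of 0.5 and 92.5% of changes of 1 were recovered. Genes were simulated independently and 200 changed at once, so these shares do not apply to a change confined to a few genes. Differences as small as those of the 9 genes were not simulated. The genes and lists were chosen with earlier results of these data known. All 10 genes were named in every comparison, from each other list the 2 genes with the smallest p (1 of them is not reported here), and for Hpdl the 5 genes with the highest and 3 with the lowest r. The alternatives comprised pseudocounts of 1 and 0.01, no filter or one at 1 FPKM, fits restricted to the compared groups, upper-quartile and quantile scaling, robust eBayes, array quality weights, the complex I score as a covariate and each mouse left out. A choroid plexus covariate, settings without 1 or 2 EtOH-UA mice and counts by mean FPKM were added after seeing the data. A replicate block and the count test were not run. Positions and promoters come from RefSeq GRCm38.p6, and transcript lengths and exons from GENCODE.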

Additional observations from a re-analysis of the deposited data

Results flagged for a closer look

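Of 30 groups of values (10 genes in 3 groups of mice), 3 held a mouse far from the rest on the log2 scale by Dixon's criterion, where chance gives about 1.5. The lowest Pdss1 value among EtOH-UA mice was 3.25 FPKM, against 4.88 for the next mouse and 5.71 for the highest, and the gap was 0.720 of the range. This mouse also had the highest Hpdl and the highest summed FPKM. The lowest Coq6 value among Ctrl mice was 6.02 FPKM, against 7.57 for the next and 9.54 for the highest (gap 0.497 of the range). The highest Coq6 value among EtOH mice was 9.56 FPKM, against 7.51 for the next and 6.42 for the lowest (gap 0.607), and this mouse had the highest summed FPKM of the EtOH mice, 366930.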

How the results depend on the processing

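No paired analysis was possible because the columns of the table carry mouse numbers and no replicate number that the groups share. Of 2160 values recomputed under alternatives, 2070 kept their direction and side of the threshold or, for values without a test, moved by less than 1 SD between mice or 1.5 times. Counts of genes with a higher mean changed by more when means of FPKM replaced those of log2 values, a choice made after seeing the data, for the 12 other coenzyme Q genes in EtOH against Ctrl mice (2 to 4) and the 8 choroid plexus genes in EtOH-UA against EtOH mice (0 to 6). The direction by which Hpdl was chosen was kept in all 35 alternatives of each comparison (log2 difference 0.47 to 0.82 for EtOH-UA against EtOH, 0.28 to 0.50 for EtOH-UA against Ctrl and -0.38 to -0.19 for EtOH against Ctrl). The alternatives refit the mice by which Hpdl was chosen, so a kept direction is no further evidence for it. None of the other 9 genes was called under any of the alternatives (adjusted p 0.552 or higher). The number of genes called went from 0 to 1 for EtOH against Ctrl with array quality weights (Cd24a) and ranged from 0 to 1 with single mice left out in each comparison (LOC115488002 for EtOH against Ctrl without the Ctrl mouse that was the third from the top by summed FPKM, and LOC101055676 for the others without the EtOH-UA mouse of lowest summed FPKM or the one that was the third from the bottom), genes named here after their values were seen. With upper-quartile scaling 57.5% of all genes were higher in EtOH than in Ctrl mice and 43.6% in EtOH-UA than in EtOH mice.

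Among single genes that turned in direction, the largest difference in the main fit was 0.11, for Coq7 in EtOH-UA against EtOH mice. In EtOH against Ctrl mice Coq7 (-0.08) and Coq2 (-0.07), among the larger differences of that comparison, also turned. None of the genes that turned passed the adjusted threshold before or after. The cause was not tested. For EtOH against Ctrl, Pdss1 was 0.0121 with upper-quartile scaling, Coq4 was -0.0315 with array quality weights, Coq2, Coq5, Coq7 and Coq8a were 0.000559, 0.0467, 0.0315 and 0.0344 with the complex I score as a covariate, and Pdss1, Coq5 and Coq8a were 0.0547, 0.0287 and 0.00548 with the choroid plexus score. For EtOH-UA against EtOH, Coq8a was 4.69e-05 with a pseudocount of 1, Coq3, Coq5 and Coq7 were -0.00958, -0.00972 and -0.0216 with array quality weights, and Coq3, Coq4, Coq5 and Coq7 were -0.000504, -0.0415, -0.0339 and -0.0490 with the complex I score. Without the 2 EtOH-UA mice of highest complex I score Coq3, Coq4, Coq5 and Coq7 were -0.0205, -0.0262, -0.0409 and -0.105, and the median of the mitochondrial content genes was -0.0474. For EtOH-UA against Ctrl, Coq2, Coq4, Coq5, Coq6, Coq7 and Coq9 were -0.0423, -0.00722, -0.0442, -0.0721, -0.134 and -0.0409 with array quality weights, Coq7 was -0.0175 with the complex I score, and without the 2 mice Coq2, Coq3, Coq4, Coq5, Coq6, Coq7 and Coq9 were -0.0603, -0.00300, -0.0123, -0.0621, -0.0699, -0.187 and -0.0430. That last value of Coq7 was the largest of those that turned (limma unadjusted p = 0.0430, adjusted p = 0.734). The 2 mice left out for it held the 2 highest Coq7 values, so a lower mean followed from that choice.

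With each mouse left out in turn, the ranges that crossed 0 for EtOH against Ctrl were -0.0526 to 0.0195 for Pdss1, -0.00586 to 0.0373 for Coq3, -0.0439 to 0.0679 for Coq4, -0.0530 to 0.0117 for Coq5 and -0.0755 to 0.0200 for Coq8a. For EtOH-UA against EtOH they were -0.0644 to 0.0501 for Coq8a, -0.0154 to 0.0579 for Coq3 and -0.00617 to 0.175 for Coq7. For EtOH-UA against Ctrl they were -0.0121 to 0.0795 for Coq2, -0.00200 to 0.0746 for Coq5, -0.0241 to 0.0605 for Coq6 and -0.0878 to 0.0741 for Coq7. The r of Hpdl with Pdss1 was -0.547 with upper-quartile scaling (adjusted permutation p = 0.0527) and -0.360 without the EtOH-UA mouse of highest summed FPKM, that with Coq5 was 0.00161 with a pseudocount of 1, and that with Coq9 was -0.0263 with upper-quartile scaling and -0.114 without that mouse. Hpdl rests on about 48.0 fragments per mouse, which sets a floor on the spread between mice.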

Other observations

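Hpd, the relative of Hpdl that acts in tyrosine breakdown in the liver, was listed at 0 in 4 of 9 Ctrl, 6 of 7 EtOH and 7 of 7 EtOH-UA mice, and its highest value in any mouse was 0.45 FPKM, in the Ctrl group. Coq10a was above its close relative Coq10b in 23 of 23 mice (15.9 and 8.502 FPKM over all mice), and Coq8a was 1.72 times as high as Coq8b. Among markers of other tissue, by the mean of log2(FPKM + 0.1), 8 of 8 choroid plexus genes had a higher mean in EtOH than in Ctrl mice (median log2 difference 1.73) and 0 of 8 a higher mean in EtOH-UA than in EtOH mice (median -0.51), with none called in limma. By mean FPKM 6 of the 8 choroid plexus genes stood above EtOH mice with UA, among them Ttr at 2119 ± 2764 against 1906 ± 1876 FPKM (SD, n = 7 each), so the direction depended on the scale. All 5 red blood cell genes had a higher mean in EtOH than in Ctrl mice (median 0.35) and in EtOH-UA than in EtOH mice (median 0.39), again with none called. Over all genes 48.6% had a higher mean in EtOH than in Ctrl mice and 51.2% in EtOH-UA than in EtOH mice.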
